A study of Mus musculus with 10 samples.

Results

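Fut9, Trh, Nphs1, Spp1, Tdh, Fbxo15, Dppa4, Dppa5a, L1td1 and Utf1 are marker genes of mouse embryonic stem (ES) cells whose mRNA was lower after Oct4 depletion. These 10 genes, of 22713 gene IDs in the count tables, were chosen by symbol for that fall at Tc 2D against WT, so that contrast is described here and not tested. The question put to them was which of them also change when Pontin is depleted. Pontin, listed as Ruvbl1, is an AAA+ ATPase found in several chromatin-remodelling and acetyltransferase complexes.

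Pontinf/f; CreER ES cells, derived from blastocysts that carry floxed Pontin alleles and a Cre recombinase activated by 4-hydroxytamoxifen (OHT), gave 1 untreated library (WT), 1 library at 3 days of OHT (OHT 3D) and 1 at 4 days (OHT 4D). ZHBTc4 ES cells, in which tetracycline (Tc) switches off the only source of Oct4, gave 1 library after 2 days of Tc (Tc 2D). ZHBTc4 cells carrying no Tc treatment on their label gave 2 libraries 4 days after infection with pLKO control lentivirus and 2 with pLKO shlinc1253 lentivirus, an shRNA against the noncoding RNA linc1253. Chromatin of untreated ZHBTc4 cells gave 1 Pontin ChIP-seq library and 1 GFP ChIP-seq library as control. The floxed alleles are in the WT cells too, no library of OHT-treated cells without floxed alleles was analysed here, and WT and Tc 2D are different cell lines, so effects of OHT or of the line cannot be told apart from those of depletion in these contrasts. The study's methods say that ES cells were grown either on fibroblast feeders or without them, and the labels do not say which library had which.

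Oct4, encoded by Pou5f1, is a POU transcription factor that holds ES cells in the pluripotent state and often binds DNA next to Sox2. In mouse ES cells it acts through promoters and distal enhancers together with coactivators such as p300. When Oct4 is withdrawn, mouse ES cells turn toward trophectoderm and the genes of the ES state are shut down, which is why genes such as Utf1, Fbxo15 and Dppa5a serve as readouts of that state.

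The proximal promoters come first. The annotated gene start is the outermost one, and transcripts of a gene may start elsewhere. The stretches of 250 b before the annotated gene start are given for Fut9, Trh and Nphs1, the members lower at OHT 3D, and for Utf1, as a member that was not. They were read from the NCBIM37 genome at gene starts of its GENCODE annotation, 5′ to 3′ on the gene's strand. Capitals mark a GC box (GGGCGG), and the stretches were also searched for a CCAAT box (CCAAT), on either strand.
Fut9 (chr4:25727392-25727641, minus strand): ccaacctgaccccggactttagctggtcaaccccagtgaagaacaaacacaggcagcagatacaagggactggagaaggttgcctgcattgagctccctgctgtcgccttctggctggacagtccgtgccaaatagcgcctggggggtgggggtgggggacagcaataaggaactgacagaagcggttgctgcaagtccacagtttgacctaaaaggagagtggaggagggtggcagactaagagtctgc
Trh (chr6:92194645-92194894, minus strand): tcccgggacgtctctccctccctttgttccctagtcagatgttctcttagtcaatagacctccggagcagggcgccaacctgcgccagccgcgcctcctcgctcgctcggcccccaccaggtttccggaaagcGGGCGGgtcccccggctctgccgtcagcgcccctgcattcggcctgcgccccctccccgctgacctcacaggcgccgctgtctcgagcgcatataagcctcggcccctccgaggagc
Nphs1 (chr7:31243084-31243333, plus strand): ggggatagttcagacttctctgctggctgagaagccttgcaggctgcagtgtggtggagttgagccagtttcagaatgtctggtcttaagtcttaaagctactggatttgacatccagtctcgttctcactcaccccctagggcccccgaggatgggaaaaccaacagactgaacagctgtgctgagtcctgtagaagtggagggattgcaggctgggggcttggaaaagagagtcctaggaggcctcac
Utf1 (chr7:147129438-147129687, plus strand): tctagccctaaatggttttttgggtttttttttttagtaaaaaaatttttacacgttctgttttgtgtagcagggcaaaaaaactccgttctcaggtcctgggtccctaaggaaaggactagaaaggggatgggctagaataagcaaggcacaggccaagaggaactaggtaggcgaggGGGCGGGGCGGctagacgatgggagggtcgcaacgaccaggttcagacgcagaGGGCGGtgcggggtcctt

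From 250 b upstream to 50 b downstream of the start, none of the 9 members searched held the octamer ATGCAAAT to which Oct4 binds, the Sox motif CATTGT or the joint Oct-Sox motif, on either strand. Of 22367 protein-coding promoters, 1.73%, 10.6% and 0.0537% did. The GC box was present in Trh and Utf1 (43.4% of all promoters), the CCAAT box in Spp1, Tdh and Fbxo15 (37.9%), and TATAAA in Spp1 (13.4%), where it starts at -218 from the gene start. Utf1 had the most GC boxes of the printed stretches, and 2 of them overlap by 1 base. In the wider window from 2500 b upstream to 500 b downstream, in which the Pontin ChIP-seq was counted, Utf1 was the only one of these members with the octamer, beside 14.6% of all promoters. The letters start at -826 from the gene start and read on the opposite strand, and are shown in capitals because they are the only octamer found in these windows.
Utf1 upstream stretch (chr7:147128842-147128889, plus strand): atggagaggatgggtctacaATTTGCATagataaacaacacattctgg

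A match describes letters and not binding, and distal enhancers were not searched. The Sox motif was present in 6 of the 9 wider windows, and in 75.8% of all promoters.

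The mRNA libraries held between 17187595 and 37951742 reads on genes, recovered from the deposited CPM, a read count scaled by library size. A gene was kept if it had more than 1 CPM in at least 1 library of its table. The labels were checked on the depleted genes. Ruvbl1 stood at 198 CPM in WT, 33.3 and 50.9 CPM after 3 and 4 days of OHT, and 85.0 CPM under Tc. The control shRNA libraries of ZHBTc4 had 166 and 186 CPM of Ruvbl1. Its log2 difference at Tc 2D was -1.21 against WT and -1.04 against those controls, so Pontin mRNA was lower in the Oct4-depleted library too. By other assays, the study reports that Pontin mRNA and protein did not change significantly when Oct4 was depleted. Pou5f1 mRNA was 301 CPM without treatment, 296 and 347 CPM on days 3 and 4 of OHT, and 21.1 CPM with Tc, so its mRNA was low at Tc 2D alone. All of 50 ES markers other than the members were above 1 CPM in WT and at both OHT times. The transcript linc1253 was not analysed here, so its knockdown was not checked.

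All 10 members were measured in both tables and passed the filter in the table of WT, OHT and Tc libraries. Tdh did so through a single library, with 1.27 CPM at OHT 3D. A change was called when log2(CPM + 1) differed from WT by more than 0.58 in either direction, the rule of the study's methods. With 1 library per condition there is no replicate check, and the 95% intervals below (exact binomial) cover the counting of reads alone. In bulk RNA, fewer cells of a type and less mRNA per cell cannot be told apart.

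At Tc 2D, the contrast that chose them, 10 of 10 members were called lower than WT, beside 25.8% of all genes tested. After 3 days of OHT, 3 of 10 were lower, namely Fut9, Trh and Nphs1, beside 5.88% of all genes. After 4 days, 2 of 10 were lower, Fut9 and Nphs1, beside 8.89%. No member was called higher in any of these contrasts, whereas 23.9%, 6.01% and 6.48% of all genes were. The 3 contrasts share the WT library, so a value of WT that is high by chance lowers a gene in each of them. The members' median log2 difference was -0.29 on day 3 and -0.03 on day 4, beside -0.02 and -0.0033 over all genes.

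**Figure D1:**
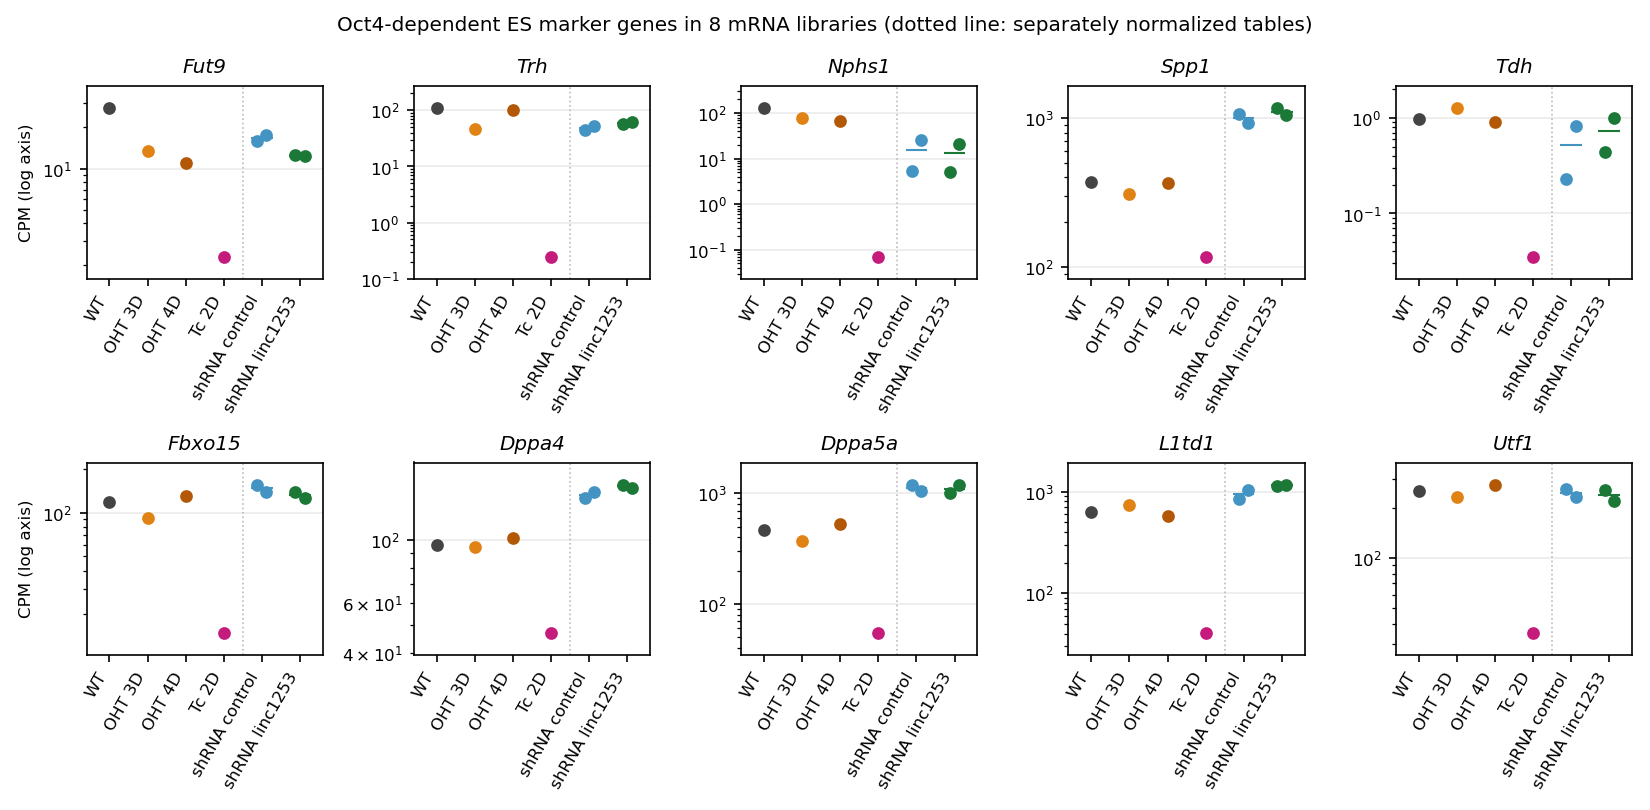
CPM of each member in each of the 8 mRNA libraries, on a log axis whose range differs between panels. Points are libraries, bars are the mean of 2 shRNA libraries, and the dotted line parts the separately normalized tables. The Tc 2D library is the lowest in every panel, and Fut9 and Nphs1 are the panels in which both OHT libraries sit well below WT.

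Fut9 and Nphs1 were the members lower at both OHT times. Fut9 (ENSMUSG00000055373, chromosome 4, 25536479 to 25727391, minus strand) encodes the fucosyltransferase that makes the Lewis X sugar known as SSEA-1, the classic surface antigen of mouse ES cells. In WT, Fut9 reached 27.5 CPM, against 13.3 and 11.04 CPM in the OHT libraries (3 and 4 days) and 2.29 CPM in the Tc library. Both OHT libraries were below WT, and the Tc 2D library was lowest. The ratio to WT was 0.485 at OHT 3D (95% counting interval 0.421 to 0.559), with a log2 difference of -0.99, and 0.402 at OHT 4D (0.345 to 0.466), with a log2 difference of -1.24. Between the OHT libraries themselves Fut9 differed by -0.25, from 295 reads to 252, which was not called. Its 2 control shRNA libraries differed by 0.14 on the same scale. They come from another cell line, and the OHT differences of Fut9 in these libraries have no replicate error of their own. By quantitative RT-PCR over independent experiments, the study reports Fut9 mRNA lower after either depletion. It also reports weaker SSEA-1 staining in Pontin-depleted ES cells. A second, shorter gene model of the same name shares 4.51% of the exon bases of Fut9 and was listed at 0 in all libraries.

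Among 19 genes of fucosyltransferases, other glycosyltransferases and fucose metabolism, Fut9 included, 18 passed the filter. Not all of them act on Lewis X. At OHT 3D, Fut9 and B4galt2, a galactosyltransferase (log2 difference -0.83), were lower and Fut10 was higher (0.78). A day later, Fut9 and Fut2 (-0.59) were lower and none was higher. The genes other than Fut9 are named after their values were seen. The median log2 difference of the 18 was -0.13 and then -0.05. Fut9 was the sole gene of this list called in the same direction at both times.

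Nphs1 (ENSMUSG00000006649, chromosome 7, 31243334 to 31272242, plus strand) encodes nephrin, an adhesion protein best known from the slit diaphragm of the kidney. Nphs1 stood at 128 CPM in WT, 77.2 and 66.6 CPM after 3 and 4 days of OHT, and 0.0705 CPM under Tc. The OHT libraries were again below WT, and at Tc 2D the gene was near zero, with 2 reads. The ratio to WT was 0.604 at OHT 3D (0.569 to 0.642; log2 difference -0.72) and 0.521 at OHT 4D (0.490 to 0.555; log2 difference -0.93). At Tc 2D it was 0.000552 (6.68e-05 to 0.00200). The control shRNA libraries of ZHBTc4 cells, however, had 5.49 and 26.1 CPM of Nphs1, a log2 difference of 2.06 between replicates. The shlinc1253 libraries differed between replicates in the same direction, by 1.90. These spreads are larger than both OHT differences, but they come from another cell line with less Nphs1, and the OHT differences have no replicate error of their own. The antisense gene Nphs1as covers 11.3% of the exon bases of Nphs1, and the counting is not said to use strand, so reads of the pair cannot be told apart there.

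Kirrel2, a nephrin relative whose gene lies head to head with Nphs1, offers a comparison within the same locus. It was chosen as the neighbour and described after its values were seen. Kirrel2 mRNA was 61.9 CPM without treatment, 59.1 and 54.8 CPM on days 3 and 4 of OHT, and 0.0352 CPM with Tc. It was near zero at Tc 2D like Nphs1, but the OHT libraries stayed close to WT. In the shRNA libraries Kirrel2 had 4.66 and 14.3 CPM with the control and 4.12 and 21.6 CPM with shlinc1253, replicate 1 being the lower in each pair, as for Nphs1. Of 8 genes of the slit diaphragm and the podocyte, 6 passed the filter. Kirrel, with 23.5 CPM in WT and 37.0 and 36.8 CPM in the OHT libraries, was higher at both times. Wt1 was higher on day 3 alone (log2 difference 0.89), and Cd2ap lower on day 4 alone (-0.65), both named after their values were seen.

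**Figure D2:**
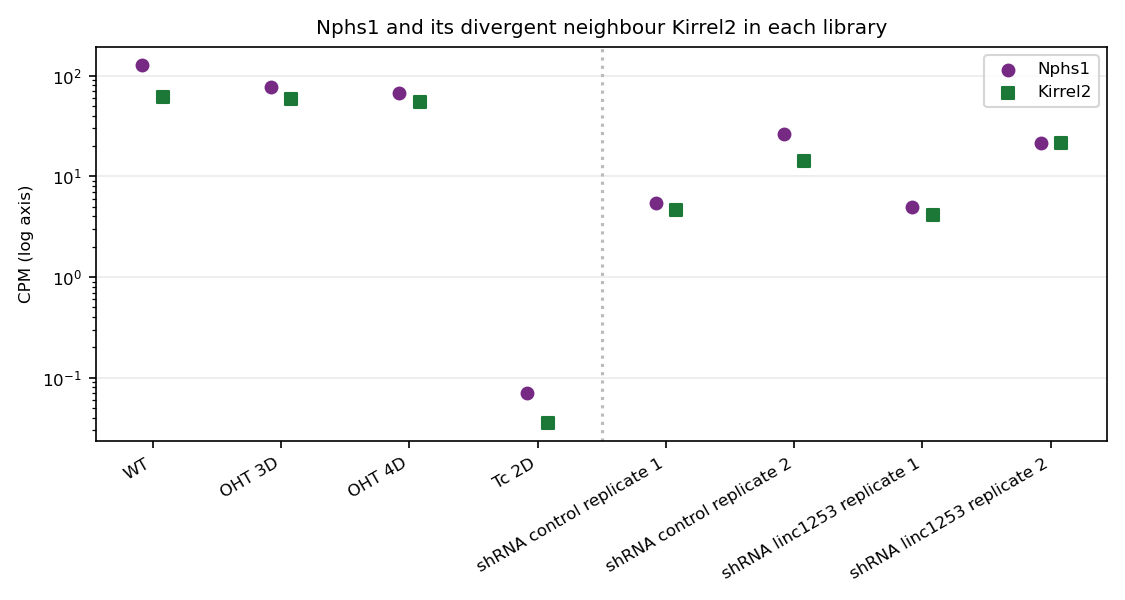
CPM of Nphs1 (circles) and its head-to-head neighbour Kirrel2 (squares) in each library, on a log axis, with the dotted line between separately normalized tables. Both genes are near the floor at Tc 2D and lower in replicate 1 than in replicate 2 of each shRNA group, whereas Nphs1 goes from 128 CPM in WT to 66.6 CPM at OHT 4D and Kirrel2 from 61.9 to 54.8 CPM.

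The secreted members behaved differently from each other. Trh (ENSMUSG00000005892, chromosome 6, 92192055 to 92194644, minus strand) encodes the precursor of thyrotropin-releasing hormone. In WT, Trh reached 109 CPM, against 47.3 and 103 CPM in the OHT libraries (3 and 4 days) and 0.247 CPM in the Tc library. It was low at OHT 3D and back near WT a day later. The ratio to WT was 0.434 at OHT 3D (0.403 to 0.467; log2 difference -1.19) and 0.941 at OHT 4D (0.889 to 0.997; log2 difference -0.09). Directly between the OHT libraries, a contrast that uses neither WT nor Tc 2D, Trh was 2.17 times higher at OHT 4D (2.02 to 2.34; log2 difference 1.10). It was the only member called in that contrast, beside 5.47% of all genes called higher and 8.84% called lower. Its 2 control shRNA libraries, of another cell line, differed by 0.23 on the same scale. Ruvbl1 was also called higher at OHT 4D than at OHT 3D, by 0.596. Of the 50 other ES markers, 6 were called higher and 6 lower between those libraries. The part of the Ruvbl1 difference in that of Trh was not tested. At Tc 2D, Trh rested on 7 reads against 2438 in WT, a ratio of 0.00226 (0.000909 to 0.00467).

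Of 8 genes for TRH receptors, peptidases and processing enzymes, 5 passed the filter. Cpe, a carboxypeptidase that trims prohormones, was higher at both times, with 7.38 CPM in WT and 16.5 and 23.1 CPM in the OHT libraries. The other 4 were not called at either time.

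Spp1 (ENSMUSG00000029304, chromosome 5, 104864137 to 104870069, plus strand) encodes osteopontin, a secreted ligand of integrins and CD44. Spp1 stood at 374 CPM in WT, 309 and 369 CPM after 3 and 4 days of OHT, and 117 CPM under Tc. It was lowest at Tc 2D, and its log2 differences at OHT, -0.27 and -0.02, were not called. Among 9 of its receptor genes, 1 was higher at both OHT times and none was lower. That gene was Cd44, with 1.03 CPM in WT, 25.6 and 23.96 CPM in the OHT libraries, and it is also on the list of fibroblast genes.

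The remaining members work inside the cell, and none of these was called after OHT. Utf1 (ENSMUSG00000047751, chromosome 7, 147129688 to 147131011, plus strand) encodes a chromatin-associated factor restricted to pluripotent cells and the germ line. Utf1 mRNA was 252 CPM without treatment, 232 and 276 CPM on days 3 and 4 of OHT, and 35.0 CPM with Tc. The OHT values lie on either side of WT, with ratios of 0.922 and 1.10.

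L1td1 (ENSMUSG00000087166, chromosome 4, 98393425 to 98405171, plus strand) encodes an RNA-binding protein derived from a LINE-1 retrotransposon. In WT, L1td1 reached 629 CPM, against 742 and 578 CPM in the OHT libraries (3 and 4 days) and 40.3 CPM in the Tc library. Its OHT values also straddled WT, with log2 differences of 0.24 and -0.12, and only Tc 2D stood apart. Fbxo15 (ENSMUSG00000034391, chromosome 18, 85104550 to 85150768, plus strand) encodes an F-box protein, the substrate-binding part of a ubiquitin ligase, and is widely used as a reporter of the ES state. Fbxo15 stood at 118 CPM in WT, 92.7 and 130 CPM after 3 and 4 days of OHT, and 14.8 CPM under Tc. It was below WT at OHT 3D and above it at OHT 4D, by -0.35 and 0.14. Of 7 genes of the SCF ubiquitin ligase in which F-box proteins work, none was called at either OHT time. At Tc 2D, Skp1a, Rbx1 and Nedd8 were lower, by values of -1.32, -1.01 and -1.06, beside 25.8% of all genes lower. They are named after their values were seen.

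Dppa4 (ENSMUSG00000058550, chromosome 16, 48283848 to 48294405, plus strand) encodes a nuclear SAP-domain protein bound to active chromatin. Dppa4 mRNA was 95.8 CPM without treatment, 94.4 and 101 CPM on days 3 and 4 of OHT, and 47.0 CPM with Tc, the mildest fall of the well-expressed members. Dppa5a (ENSMUSG00000060461, chromosome 9, 78214859 to 78215984, minus strand) encodes a small KH-domain RNA-binding protein. In WT, Dppa5a reached 464 CPM, against 374 and 531 CPM in the OHT libraries (3 and 4 days) and 54.2 CPM in the Tc library. Its log2 differences at OHT were -0.31 and 0.19. Of 5 Dppa genes, 4 passed the filter, and 1 of them, Dppa3, was lower at OHT 3D (log2 difference -1.005, named after its value was seen). None was called at OHT 4D, and 4 were lower at Tc 2D. The shares of all genes lower at OHT 3D and Tc 2D were 5.88% and 25.8%. Counts of both genes are uncertain, since 93.2% of the Dppa4 transcript and 98.2% of the Dppa5a transcript match other genome positions at an identity of 90% or more, at 2 and 7 places. For L1td1 the share was 20.5%.

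Tdh (ENSMUSG00000021953, chromosome 14, 64111184 to 64127929, minus strand) encodes threonine dehydrogenase, the enzyme through which mouse ES cells turn threonine into glycine and acetyl-CoA. Tdh stood at 0.983 CPM in WT, 1.27 and 0.920 CPM after 3 and 4 days of OHT, and 0.0352 CPM under Tc, from 22, 28, 21 and 1 reads. The first 3 values cannot be told apart at this depth, since the intervals of the ratio to WT, 0.711 to 2.36 at OHT 3D and 0.489 to 1.78 at OHT 4D, include 1. At Tc 2D the ratio was 0.0358 (0.000868 to 0.222). A similar sequence elsewhere matches 84.5% of its transcript, so its counts are uncertain as well and its level may be too low if shared reads were not counted, and an antisense gene covers 2.52% of its exon bases. Of 16 genes of threonine, glycine and one-carbon metabolism, 6 were lower on day 3 of OHT, 2 on day 4 and 12 under Tc, and none was higher. Of all genes, 5.88%, 8.89% and 25.8% were lower and 6.01%, 6.48% and 23.9% higher. The list also holds serine-synthesis enzymes and amino acid transporters. Of those, Phgdh, Psat1, Psph and Slc1a5, named after their values were seen, were among the genes lower on day 3. Mthfd1l, a mitochondrial one-carbon enzyme, was lower at both OHT times, at 155 CPM in WT and 99.6 and 102 CPM with OHT. The other gene lower on day 4 was Gldc of the glycine cleavage system, at -0.63, named after its value was seen.

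**Figure D3:**
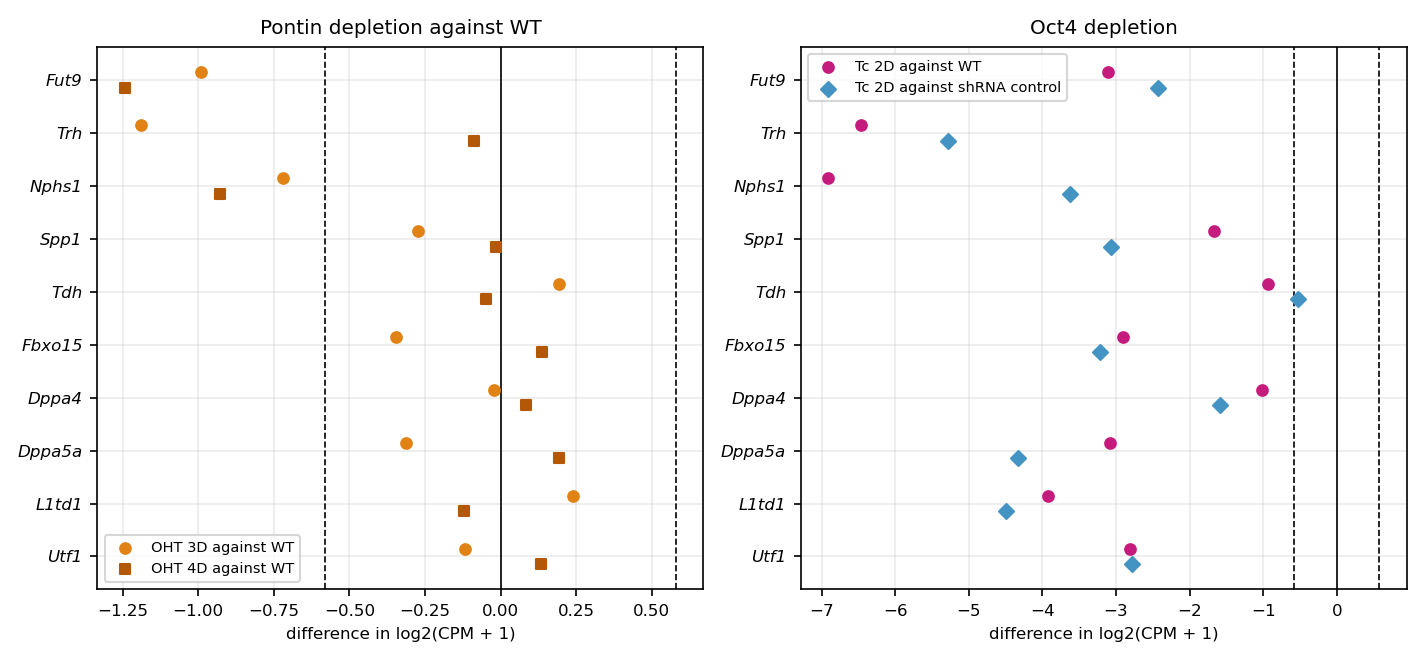
Difference in log2(CPM + 1) of each member, for OHT 3D and OHT 4D against WT on the left and for Tc 2D against WT or the mean of the control shRNA libraries on the right, with dashed lines at 0.58 either way. On the left, Fut9 and Nphs1 lie past the line at both times and Trh at OHT 3D, and on the right every member but Tdh lies past it against both references.

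Many marker genes of other cell types were called higher in the OHT libraries. Of 26 fibroblast genes, 15 were above 1 CPM in WT and 23 in each OHT library, and their summed level was 874, 1141 and 1170 CPM. Fn1, which encodes fibronectin and is named after its values were seen, made up most of the WT sum, with 794 CPM there and 642 and 556 CPM with OHT, and the other 25 genes summed to 80.2, 499 and 613 CPM. Lum and Fap were at 0 in WT and on day 3, and no gene of the list was at 0 on day 4. Of the 23 that passed the filter, 21 were higher at both times. Acta2 went from 5.90 CPM to 94.6 and 111.9, and Col1a1 from 4.20 CPM to 46.5 and 64.6. Of 13 trophectoderm genes that passed the filter, 6 were higher and 2 lower on day 3, and 8 higher and 1 lower on day 4. Their list summed to 290, 282 and 490 CPM in WT and with OHT. Tfap2c, called lower at both times, made up most of the WT sum, with 192 CPM there and 114 and 127 CPM with OHT. Of 13 primitive endoderm genes, 5 were higher and 1 lower and then 9 higher, and that list summed to 810, 1056 and 1120 CPM. Matrix genes made up most of that WT sum. Lamc1 had 339, 403 and 267 CPM, Sparc 208, 273 and 401, and Lamb1 151, 142 and 133. The regulators Gata4, Gata6 and Sox17 were at most at 10.6 CPM in these libraries. These 6 genes are named after their values were seen. Elf5 was at 0 in WT and Afp in all 3 libraries. Of 50 other ES markers, 7 were lower and 2 higher on day 3 and 9 lower and 4 higher on day 4, against 41 lower and 2 higher under Tc. Their summed level was 12258, 12183 and 11498 CPM in WT and with OHT. Beside all of these lists, 5.88% of all genes were lower and 6.01% higher on day 3. On day 4 the shares were 8.89% and 6.48%, and under Tc 25.8% and 23.9%. The part of the fibroblast, trophectoderm and primitive endoderm genes in the lower values of Fut9, Nphs1 and Trh was not tested.

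Among those ES markers, those called in the same direction at both OHT times were Lefty1, a Nodal antagonist, Otx2, a homeobox factor, Esrp1, an epithelial splicing factor, Aire, a transcriptional regulator, and Gbx2, a homeobox factor. Lefty1 had 195 CPM in WT and 60.5 and 111.9 CPM with OHT, and Aire 31.8, 16.6 and 13.7 CPM. Esrp1 had 78.7, 48.8 and 46.6 CPM, but its control shRNA libraries had 2.49 and 23.6 CPM, a spread between replicates like that of Nphs1. Otx2 was lower too, with 20.5, 10.4 and 12.6 CPM, whereas Gbx2 was higher, with 10.4, 30.5 and 22.5 CPM.

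Against the control shRNA libraries of the same ZHBTc4 line, 9 of 10 members were called lower at Tc 2D, beside 30.1% of all genes. The exception was Tdh, at 0.231 and 0.817 CPM in the controls and a log2 difference of -0.53. This comparison reuses the Tc 2D library and crosses tables that were normalized apart, with a median over all genes of -0.17, so it is a description too. L1td1 kept 4.30% of its mean control level, Dppa5a 4.85%, Fbxo15 10.1%, Spp1 11.8%, Fut9 13.6%, Utf1 14.2% and Dppa4 32.7%. Trh and Nphs1 kept 0.516% and 0.447%. The Nphs1 share was 1.28% of control replicate 1 and 0.270% of control replicate 2. Set against WT, Spp1 kept 31.4%, Dppa5a 11.7%, Trh 0.226% and Nphs1 0.0552%, so these shares depended on the reference.

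The undepleted cell lines did not hold the members at the same level. Spp1 had 1064 and 932 CPM in the control shRNA libraries, 2.67 times its WT level on average, and Dppa5a 1185 and 1051 CPM, 2.41 times. Nphs1, with 5.49 and 26.1 CPM, stood at 0.124 of WT on average, at 0.0430 in replicate 1 and 0.204 in replicate 2. Trh was at 0.439, with 43.9 and 51.7 CPM, and Fut9 at 0.612, with 16.0 and 17.7 CPM. Utf1, with 262 and 232 CPM, was at 0.981 of WT. The line, the lentivirus, the sequencer and the table's normalization change together here and cannot be told apart.

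Per kilobase of exon, Dppa5a was the most abundant member in WT, at 750 CPM per kb, though its level and that of Dppa4 are uncertain for the matching sequences elsewhere. Spp1 (227), Utf1 (205) and L1td1 (198 CPM per kb) followed, and neighbours among these 3 genes differ by less than the 1.13-fold between the control replicates of Utf1. Fbxo15 (81.1), Trh (78.7) and Dppa4 (62.4 CPM per kb) came next, of which Fbxo15 and Trh likewise lie within replicate spread. Nphs1 (24.2), Fut9 (1.99) and Tdh (0.376 CPM per kb) were lowest, the Tdh level being uncertain for the similar sequence named above. By the mean of the control shRNA libraries the order was Dppa5a at 1806, Spp1 at 606, L1td1 at 296, Utf1 at 201, Fbxo15 at 101, Dppa4 at 93.6, Trh at 34.6, Nphs1 at 2.99, Fut9 at 1.22 and Tdh at 0.2003 CPM per kb. Single libraries departed from it, with Nphs1 (1.04) below Fut9 (1.15) in replicate 1 and Fbxo15 (94.7) below Dppa4 (96.0 CPM per kb) in replicate 2.

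Over all 8 libraries, the genes whose log2(CPM + 1) followed the mean of the members most closely, among 9948 searched, were Actl6a (Pearson r 0.998), Wipi2 (0.995), Pes1 (0.995), Tdgf1 (0.995) and Tuba4a (0.994). Tdgf1, a Nodal co-receptor, had 678 CPM in WT, 661 and 708 CPM with OHT, and 7.79 CPM under Tc. Actl6a, an actin-related subunit of chromatin-remodelling complexes, had 167, 152, 157 and 66.3 CPM. In these genes, as in the members' mean, the Tc 2D library stands below the other 7. Of the members, Utf1 followed the mean of the other members best (r 0.979) and Nphs1 least (r 0.615).

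Knockdown of linc1253 in undepleted ZHBTc4 cells, 2 libraries against 2, called none of the 10 members by limma with Benjamini-Hochberg adjustment over 13407 genes. The smallest adjusted p of a member was 0.596, for Fut9. Of all genes limma called none either (smallest adjusted p 0.265), edgeR called none and DESeq2 called 23 higher and 27 lower, with no member among them. The study used another rule on these libraries, a combined P of 2 tests below 0.05 and a fold cutoff. By that rule it reports many more changed genes, so the counts are not alike. At an unadjusted p under 0.05, limma had 2 members higher and 1 lower, beside 3.70% and 3.75% of all genes. Nothing in the labels says that the replicates came from separate cultures, so p-values measure the spread between these libraries, which may be technical.

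Fut9, the lower of these, had 16.0 and 17.7 CPM with the control and 12.47 and 12.45 CPM with shlinc1253. Both knockdown libraries were below both control libraries, and the log2 difference was -0.40 ± 0.12 (SE, n = 2 against 2). Trh had 43.9 and 51.7 CPM with the control and 57.1 and 61.5 CPM with shlinc1253, a log2 difference of 0.31 ± 0.12 (SE). L1td1 had 850 and 1026 CPM with the control and 1127 and 1166 CPM with shlinc1253, a difference of 0.30 ± 0.12 (SE). For Fut9, Trh and L1td1 the adjusted p by limma was 0.596, 0.643 and 0.648, so none passed in this fit, which has no term for the replicate number.

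The other members differed by less. Spp1 had 1166 and 1044 CPM with shlinc1253, Dppa5a 1017 and 1198, Dppa4 156 and 153, Fbxo15 138 and 126 and Utf1 257 and 221. Their log2 differences ran from -0.15 for Fbxo15 to 0.15 for Spp1, with standard errors between 0.09 and 0.12. Tdh had 0.231 and 0.817 CPM with the control against 0.438 and 1.01 with shlinc1253, a difference of 0.18 ± 0.26 (SE). Nphs1 had 5.49 and 26.1 CPM with the control and 4.97 and 21.2 CPM with shlinc1253, a difference of -0.20 ± 0.80 (SE). Between the control replicates Nphs1 was the only member called by the 0.58 rule, beside 1.93% of genes higher and 1.16% lower in replicate 2. The knockdown replicates gave the same single member, beside 1.93% higher and 0.671% lower. Without control replicate 1 the Nphs1 difference was -1.23 and without control replicate 2 it was 0.83, values that carry the spread between replicates and say nothing on the direction of the knockdown difference.

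Pontin ChIP-seq reads were counted at the members' promoters, from 2500 b upstream to 500 b downstream of the gene start, among 40729076 Pontin and 17185883 GFP reads. Scaled by library size, 6 of 10 members had a log2 ratio of Pontin over GFP above 0.58, beside 34.5% of 21193 protein-coding promoters with reads in both libraries. They were Trh (0.96), Tdh (0.96), L1td1 (0.93), Fut9 (0.85), Dppa5a (0.74) and Nphs1 (0.66). Dppa4 (0.36), Spp1 (0.33), Utf1 (0.29) and Fbxo15 (0.04) were below. The members' median was 0.70, and the median of all promoters was 0.34, with a 5th percentile of -0.79 and a 95th of 1.41.

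The Fut9, Trh and Nphs1 promoters, whose genes were lower at OHT 3D, were thus above 0.58, and so were those of Tdh, Dppa5a and L1td1, whose genes were not. Few reads stand behind each ratio. Fut9 had 98 Pontin and 23 GFP reads, Trh 60 and 13, Nphs1 71 and 19, and Utf1, with its octamer, 84 and 29. Counted as fragments, only Tdh (0.22 to 1.95) and L1td1 (0.24 to 1.54) had 95% intervals of the log2 ratio that exclude 0. No member's fragment interval lay wholly above the all-promoter median of 0.34. That median is of read ratios and was not computed for fragments, so the comparison is rough. By it, none stood out from other promoters at this depth. Scaled by the median ratio over promoters, 3 of 10 were above 0.58, namely Trh, Tdh and L1td1, beside 17.3% of all promoters.

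The ratio also moved with expression and base content. Among promoters of genes at most at 1 CPM in the control shRNA libraries, 25.3% were above 0.58, and among those over 100 CPM 43.8% were. Of the 6 members over 100 CPM there, Dppa5a and L1td1 were above it. Across promoters, which are not independent replicates, Pearson's r of the log2 ratio with GC content was 0.240. The Nphs1 window had 55.0% GC and that of Fut9 44.1%, beside a median of 48.1%. The part of expression and GC content in the members' ratios was not tested.

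**Figure D4:**
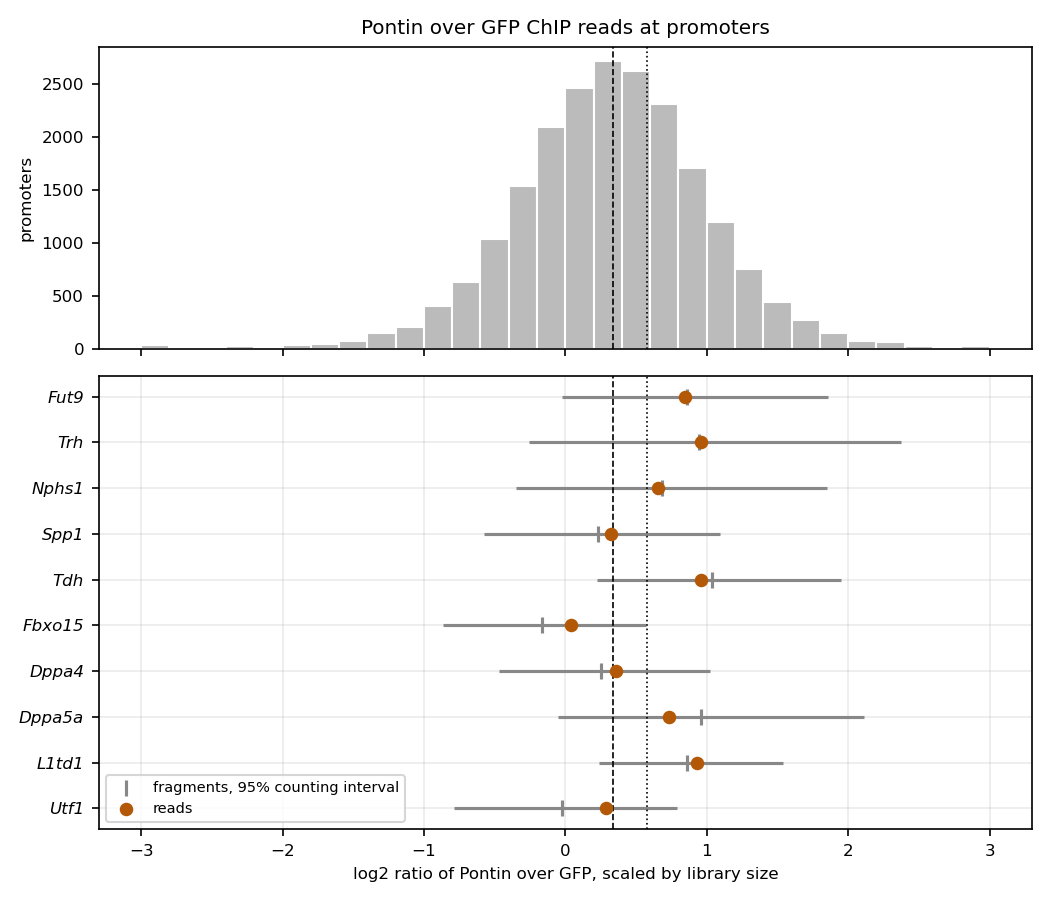
Log2 ratio of Pontin over GFP reads, each scaled by library size, for all protein-coding promoters (histogram) and for each member (dots, reads; ticks and lines, fragments with 95% counting intervals). The dashed line is the all-promoter median of read ratios, 0.34, and the dotted line is 0.58. No member's fragment interval lies wholly above that median.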

How the data were processed

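The authors sequenced poly(A) mRNA and, per the study's methods, used TopHat on trimmed reads (NCBIM37), HTSeq for gene counts and edgeR for TMM normalization. They deposited CPM in 2 tables, each normalized apart. Dividing by the smallest step of a library gave whole reads for 100% of values, within 0.01 read. Depth was 17187595 to 37951742 reads on genes. The authors deposited the ChIP reads, aligned to NCBIM37, 1 line per read with a mapping quality score.

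The 10 members and the gene lists were chosen with earlier results of these data known. Named genes are the members, the depleted genes, list genes called at both OHT times in the same direction, and the 5 genes most like the members' mean among those with a mean of at least 5 CPM in each table. Kirrel2, marker genes at 0 and genes said to be named after their values were seen were added. Differences are in log2(CPM + 1), over 13449 genes above 1 CPM in at least 1 of WT, OHT 3D, OHT 4D and Tc 2D, called past 0.58. The shRNA groups were compared over 13407 genes by limma 3.58.1 with trend and Benjamini-Hochberg adjustment at 0.05. Recovered reads were also tested with edgeR 4.0.16 (quasi-likelihood) and with DESeq2 1.42.0. ChIP reads were counted from 2500 b upstream to 500 b downstream of each GENCODE gene start. Intervals are exact binomial at 95% and cover counting error alone. No molecular identifiers tell PCR copies apart, so copies may count as separate reads and the intervals may be too narrow. Motifs were searched in 9 members, and the promoter sequence of the other member is not reported here. Similar sequences were sought with blastn 2.17.0. Python 3.11.15, numpy 2.4.6, pandas 2.3.3, scipy 1.17.1, pysam 0.24.0, matplotlib 3.10.9 and R 4.3.3 were used. The fold call, the knockdown tests and the promoter read count and ratio were tested on simulated data. Alternatives were other pseudocounts, filters, thresholds and scalings, a replicate block, leaving out each shRNA library, and for ChIP 1 read per position and strand, 1 kb windows and other start sites.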

Additional observations from a re-analysis of the deposited data

Results flagged for a closer look

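Among the members, 4 stood on opposite sides of WT at the 2 OHT times, with counting intervals that exclude no change on each side. Fbxo15, the F-box protein gene, differed from WT by -0.35 in log2(CPM + 1) on day 3 and by 0.14 on day 4. Dppa5a, the KH-domain gene, differed by -0.31 and then 0.19, and Utf1 by -0.12 and then 0.13. L1td1 ran the other way, at 0.24 and then -0.12. With 1 library per time point these differences between times were not tested, none of the values was called, and the control shRNA replicates of these genes differed by between 0.17 and 0.27 on the same scale.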

How the results depend on the processing

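Other pseudocounts, filters and scalings left the number of members called at 3 on day 3 of OHT, at 2 on day 4 and at 9 or 10 at Tc 2D. A threshold of 1 in place of 0.58 left 1 member on day 3 (Trh) and 1 on day 4 (Fut9), beside 0.929% and 1.61% of all genes lower, since Fut9 on day 3 and Nphs1 at both times lie between those thresholds. Tdh gave no value with a filter at 5 CPM. It was not called at Tc 2D with a pseudocount of 3 (-0.39), and it was called against the ZHBTc4 controls with a pseudocount of 0.5 (-0.87) or without control replicate 1 (-0.81). Leaving out a control replicate gave 9 to 10 members in that comparison. For Pontin ChIP, scaling by the median ratio over promoters lowered the count from 6 to 3, by its construction. Counting 1 read per position and strand took Dppa5a below 0.58 (0.42) and Utf1 above it (0.70), windows of 1 kb took Dppa4 above it (0.97), and other start sites took Nphs1 (0.49) and L1td1 (0.47) below it.

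Without 1 shRNA library, the number of members called after linc1253 knockdown was 0 to 0. The shRNA replicates share only a number, and over genes the deviations of same-numbered libraries from their group means correlated at 0.673. When the replicate number entered as a block, limma called 3 members, Trh (adjusted p 0.00255), Fut9 (0.00555) and L1td1 (0.00747), and 933 genes higher (6.96%) and 1027 lower (7.66%), and edgeR called 4 members, with Fbxo15 added (0.0376), and 1217 genes higher and 1345 lower of 13407. No called value changed direction under any alternative run. With 1 library per condition, counting error is the only error the OHT, Tc and ChIP values carry, and each promoter ratio rests on 13 to 39 GFP reads.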

Other observations

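After linc1253 knockdown, 8 of 16 genes of threonine, glycine and one-carbon metabolism, Tdh included, were lower at an unadjusted p under 0.05 by limma and none was higher, beside 3.75% of all genes lower, and none passed at an adjusted p of 0.05. Tdh itself and Gcsh of the glycine cleavage system were not among the 8, Gcsh, named after its values were seen, having 161 and 149 CPM with the control and 170 and 154 CPM with shlinc1253. Their median log2 difference was -0.24, beside -0.0011 over all genes. Of the trophectoderm list, 4 of 11 were lower at the unadjusted threshold, with a median of -0.28. The 50 ES markers had 8 higher and 3 lower, beside 3.70% and 3.75% of all genes, with a median of 0.02. The 21 fibroblast and 12 primitive endoderm genes had medians of 0.40 and 0.23, with none past the unadjusted threshold. By the 0.58 rule, 11 of the 21 and 6 of the 12 were higher in shlinc1253 replicate 2 than in replicate 1, beside 1.93% of all genes. Between the control replicates, 4 and 0 were. The part of these genes in the differences of the other lists was not tested.

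Of glycosyltransferases and fucose metabolism, 18 genes passed the filter. At Tc 2D against WT, 7 were higher and 5, Fut9 among them, lower, beside 23.9% and 25.8% of all genes. Their median log2 difference was 0.25. Against the control shRNA libraries of the same line, 5 were higher and 3 lower, beside 17.8% and 30.1% of all genes. B3gnt5, which starts lacto-series glycolipids, was higher by 2.25 against WT and by 1.21 against those controls. Fut8, which adds fucose to the core of N-glycans and does not make Lewis X, was higher by 1.29 and 0.87. The neighbour of Utf1 on chromosome 7, Kndc1, had 28.7 CPM in WT and 17.2 and 12.9 CPM with OHT, while Utf1 stayed near WT with OHT. Under Tc, Kndc1 had 11.1 CPM. The control shRNA libraries of the same ZHBTc4 line had 14.02 and 16.43 CPM of Kndc1, closer to the Tc value than WT was. Dppa5b, a close relative of Dppa5a, was at most at 0.789 CPM in any library. These genes were named after their values were seen.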
